A study of Mus musculus with 33 samples.

Results

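The 10 genes described here encode proteins that neurons and other cells switch on within minutes of stimulation and that then limit or carry out the response: Btg2, Zfp36, Dusp1, Dusp5, Dusp6, Sik1, Nfkbid, Irs2, Ier2 and Arc. They were chosen with earlier results of these data known, and their rows were taken by gene symbol from both deposited tables. All 10 were present in the table of whole main olfactory epithelium (MOE; 14613 genes) and in that of sorted mature olfactory sensory neurons (mOSN; 14744 genes with values), and all 10 passed the filter on low values in MOE, as did 14602 genes in all.

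Odorants open cyclic-nucleotide-gated channels in sensory neurons, and the calcium and cyclic AMP signals that follow activate the kinases of the ERK cascade and the transcription factors CREB and SRF. Immediate early genes are transcribed in response without new protein synthesis. Many of them encode brakes: MAP kinase phosphatases (Dusp1, Dusp5, Dusp6) take phosphate off ERK, p38 or JNK, Sik1 phosphorylates the coactivators of CREB and keeps them out of the nucleus, and Btg2 and Zfp36 bring mRNAs to the deadenylation machinery. The others work downstream, as Arc does at synapses.

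All animals were mice 3 weeks old. KO animals were homozygous-null for Dnmt3a, a de novo DNA methyltransferase, Het animals were heterozygous-null and WT animals carried 2 intact copies. MOE RNA came from animals of each genotype kept for 10 min in clean cages and then for 60 min with paper that carried 80 µL of either an equal mix of amyl acetate, acetophenone and octanal (odor) or water, with 1 library per genotype and treatment. The mOSN table has 1 pooled value per genotype, made from 2 libraries each, of animals with no odor treatment stated. The labels do not state which part of Dnmt3a was removed, how many animals a library holds or their sex, and a p-value here reflects spread between libraries, part of which may be technical.

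Promoter sequence is shown for 5 members because they carry a recognition sequence of CREB or SRF, the factors named above. The RefSeq promoter table used here (GRCm38.p6) was matched by symbol for 7 of the 10 genes, with 9 windows of 250 bases upstream, 3 of them for Nfkbid; Arc, Sik1 and Ier2 are not among the 7. The full cyclic AMP response element TGACGTCA, searched on both strands, lay in 3 of the 9 windows and in 1.55% of all 32851 windows of the same length. The CArG box, the SRF motif, was found in 2 of the 9 and in 1.47% of all windows. The shorter element TGACG, which the full element holds on each strand, was found in 4 of the 9 and in 17.8% of all, and a kappa-B site in 1 of the 9, the second Nfkbid start, and in 7.25% of all. These counts describe letters and do not show binding. The sequences run 5′ to 3′ on the strand of the gene and end at the base before the start site, with the full cyclic AMP response element or the CArG box in capitals.
Btg2, chr1:134079156-134079405, minus strand: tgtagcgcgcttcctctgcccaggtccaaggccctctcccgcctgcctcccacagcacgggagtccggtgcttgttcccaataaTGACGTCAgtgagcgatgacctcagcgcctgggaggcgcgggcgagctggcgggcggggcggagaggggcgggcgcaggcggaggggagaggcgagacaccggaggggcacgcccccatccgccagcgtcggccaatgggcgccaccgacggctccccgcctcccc
Dusp1, chr17:26508473-26508722, minus strand: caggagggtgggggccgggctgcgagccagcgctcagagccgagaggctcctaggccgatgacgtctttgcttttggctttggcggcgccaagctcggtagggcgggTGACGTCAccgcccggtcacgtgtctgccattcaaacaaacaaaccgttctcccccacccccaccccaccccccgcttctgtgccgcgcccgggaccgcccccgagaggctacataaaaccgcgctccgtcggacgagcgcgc
Nfkbid, second start, chr7:30422156-30422405, plus strand: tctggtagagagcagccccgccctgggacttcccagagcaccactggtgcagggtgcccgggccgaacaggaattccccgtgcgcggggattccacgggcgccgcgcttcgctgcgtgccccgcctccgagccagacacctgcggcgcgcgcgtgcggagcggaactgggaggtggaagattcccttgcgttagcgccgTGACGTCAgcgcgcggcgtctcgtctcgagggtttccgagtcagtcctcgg
Zfp36, chr7:28379229-28379478, minus strand: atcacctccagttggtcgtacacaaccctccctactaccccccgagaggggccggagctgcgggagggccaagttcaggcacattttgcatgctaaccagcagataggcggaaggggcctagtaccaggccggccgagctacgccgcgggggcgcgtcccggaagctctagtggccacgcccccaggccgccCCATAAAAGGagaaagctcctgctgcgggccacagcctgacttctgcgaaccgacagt
Dusp5, chr19:53528895-53529144, plus strand: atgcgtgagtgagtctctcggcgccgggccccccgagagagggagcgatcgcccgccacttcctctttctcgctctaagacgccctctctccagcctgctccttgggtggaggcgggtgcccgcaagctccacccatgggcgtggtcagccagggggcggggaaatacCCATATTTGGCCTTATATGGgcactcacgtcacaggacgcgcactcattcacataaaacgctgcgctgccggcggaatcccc
The full element began 166 bases upstream of the start in Btg2, 143 in Dusp1 and 51 in Nfkbid. Dusp5 had a pair of adjoining CArG boxes that began 82 and 72 bases upstream, and the box of Zfp36 began 58 bases upstream. Dusp6 and Irs2 had none of these motifs in their windows.

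Levels below are the RPKM-scale values of the authors, which are comparable between libraries of 1 table. Fold changes of 1 pair of libraries carry 95% intervals from the recovered read numbers (exact binomial), which cover counting error only and not differences between animals. Effects across genotypes are limma's log2 fold changes ± SE on log2(value + 0.5), with Benjamini-Hochberg adjustment over all 14602 genes. Recovered reads totalled 9166049 to 16722993 per MOE library, and a member had 21 to 2569 reads in a library. The targeted gene Dnmt3a stood at 48.3 in KO, 66.6 in Het and 89.0 in WT with odor, and at 56.1 in KO, 50.3 in Het and 84.4 in WT with water, so it was lower in both mutants under each treatment and was not lost in KO.

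The first comparison asks which of these genes respond to odor in the epithelium. Every member was higher with odor than with water in each of the 3 genotypes, which held for 15.6% of all genes (52.9% were higher in KO, 52.5% in Het and 49.5% in WT), and for 9 of the 10 all 3 odor libraries lay above all 3 water libraries (7.77% of all genes did so); Arc was the exception. At least 2-fold higher were 7 of the 10 in KO (5.4% of all genes), 7 in Het (4.26%) and 9 in WT (5.22%). The counting interval lay above 1 for 9 members in KO (27.6% of all genes), 10 in Het (35.1%) and 10 in WT (28.6%). At least 2-fold higher in every genotype were 6 members, Btg2, Zfp36, Dusp5, Sik1, Nfkbid and Irs2, against 0.185% of all genes (27 of 14602). Because the members were chosen with earlier results of these data known, these shares are a description and not independent support for induction. The median log2 difference of the 10 was 1.38 in KO, 1.27 in Het and 1.91 in WT, where the median of all genes was 0.03, 0.03 and -0.01. No member passed limma's test after adjustment, in which 0.0137% of genes were called, these being Fos and Egr1. Without adjustment 9 of the 10 had p under 0.05, Dusp6 being the exception, where 3.01% of all genes were higher at that level. In this design a response that differs between genotypes counts as error, so p depends on both the size of an effect and its spread over the 3 pairs. Sik1, with a log2 effect of 1.76 and an SD over genotypes of 0.36, had a smaller p than Irs2, with 1.26 and 0.10.

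**Figure D1:**
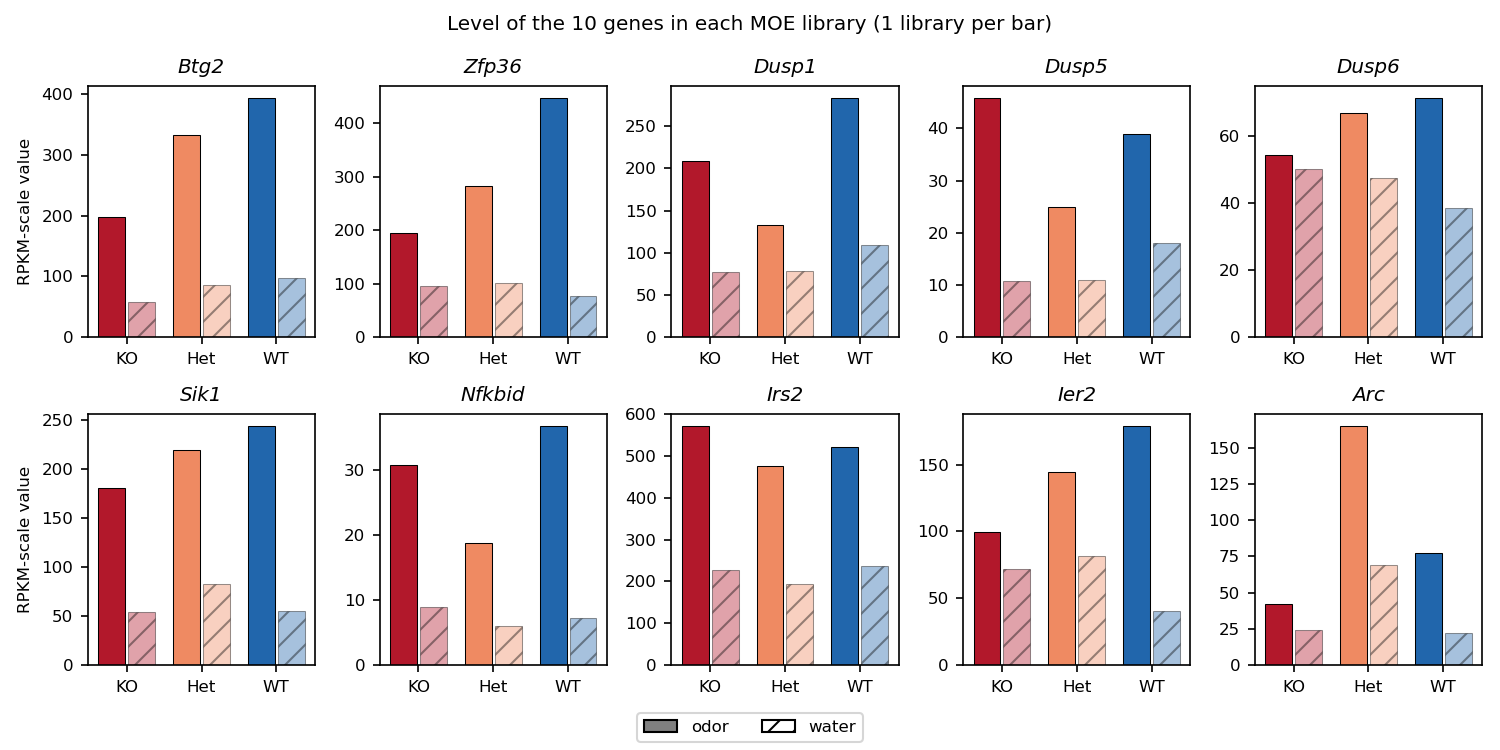
Deposited RPKM-scale value (linear axis from 0, 1 panel per gene) in the 6 MOE libraries, with KO, Het and WT from left to right and odor (solid) left of water (hatched). Each bar is 1 library; in all 10 panels the odor bar is taller than the water bar of its genotype, least so for Dusp6 in KO (54.4 against 50.1).

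Of the genes that act on mRNA decay, Btg2 was the member nearest to a call. Btg2 (ENSMUSG00000020423), an antiproliferative protein that recruits deadenylases, stood at 198 in KO, 333 in Het and 394 in WT with odor, and at 58.5 in KO, 85.9 in Het and 97.4 in WT with water. The groups did not overlap, and KO was the lowest library under either treatment. Its fold of odor over water was 3.40 in KO (2.79 to 4.16), 3.88 in Het (3.39 to 4.46) and 4.04 in WT (3.54 to 4.62). The effect across genotypes was 1.90 ± 0.15 on the log2 scale (limma adjusted p = 0.0722), and voom on recovered reads gave 1.91 ± 0.19 with adjusted p = 0.0193. Btg2 thus passed with reads and missed with the deposited values. The SD of its log2 effect over the 3 genotypes was 0.13, where the median gene had 0.38.

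Zfp36 (ENSMUSG00000044786) encodes tristetraprolin, which binds AU-rich elements and speeds the decay of cytokine and immediate early mRNAs. With odor it stood at 195 in KO, 283 in Het and 448 in WT, and with water at 95.9 in KO, 100.8 in Het and 77.5 in WT. The odor libraries were graded by genotype. With water WT was the lowest library, with Het at 1.30 of WT (1.04 to 1.62) and KO at 1.24 (0.972 to 1.57). The fold was 2.03 in KO (1.66 to 2.51), 2.81 in Het (2.39 to 3.31) and 5.78 in WT (4.84 to 6.94), and the interval of WT did not overlap the others. Across genotypes the effect was 1.68 ± 0.30 (limma adjusted p = 0.882), and its SD over genotypes of 0.77 was the second highest of the members.

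The 3 MAP kinase phosphatases differed in the size of their response. The largest fold was in KO for Dusp1 and Dusp5 and in WT for Dusp6. For each gene the interval of that fold overlapped the interval of another genotype. Dusp1 (ENSMUSG00000024190), a nuclear phosphatase of p38, JNK and ERK, stood at 208 in KO, 133 in Het and 284 in WT with odor, and at 77.2 in KO, 78.1 in Het and 109 in WT with water. Odor was above water in each pair, and the Het odor library was low among the odor libraries. Its fold was 2.70 in KO (2.37 to 3.08), 1.71 in Het (1.52 to 1.92) and 2.59 in WT (2.36 to 2.86). Dusp5 (ENSMUSG00000034765), a nuclear phosphatase that acts on ERK, stood at 45.8 in KO, 25.0 in Het and 39.0 in WT with odor, and at 10.8 in KO, 10.9 in Het and 18.1 in WT with water. It was thus highest in KO with odor, while with water KO and Het were nearly equal and below WT, on 21 to 101 reads a library. In KO it was at 1.17 of WT with odor (0.881 to 1.57) and 0.598 with water (0.340 to 1.02), intervals that include 1. Its fold was 4.24 in KO (2.63 to 7.15), 2.29 in Het (1.48 to 3.62) and 2.16 in WT (1.51 to 3.13), with intervals that overlap.

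Dusp6 (ENSMUSG00000019960), the cytoplasmic ERK phosphatase, had the smallest response of the 10. It stood at 54.4 in KO, 66.9 in Het and 71.3 in WT with odor, and at 50.1 in KO, 47.5 in Het and 38.4 in WT with water. Its fold was 1.09 in KO (0.906 to 1.30), which counting error alone can give, 1.41 in Het (1.22 to 1.63) and 1.86 in WT (1.57 to 2.19). Across genotypes the log2 effects were 1.19 ± 0.19 for Dusp1, 1.43 ± 0.29 for Dusp5 and 0.50 ± 0.22 for Dusp6 (limma adjusted p = 0.866, 0.882 and 0.882). None passed the test. Without the WT pair the effect of Dusp6 was 0.30.

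Sik1 (ENSMUSG00000024042), the kinase that acts on CREB coactivators, stood at 180.4 in KO, 219.9 in Het and 244 in WT with odor, and at 53.6 in KO, 82.4 in Het and 55.4 in WT with water. All odor libraries were more than 2-fold above the highest water library. The fold was 3.37 in KO (2.86 to 3.97), 2.67 in Het (2.38 to 2.99) and 4.41 in WT (3.85 to 5.06). Across genotypes the effect was 1.76 ± 0.19 (limma adjusted p = 0.279), the second smallest p of the members.

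Nfkbid (ENSMUSG00000036931) encodes a nuclear I-kappa-B protein that modulates NF-kappa-B, and Irs2 (ENSMUSG00000038894) an adaptor of the insulin and IGF receptors. Nfkbid stood at 30.8 in KO, 18.8 in Het and 36.9 in WT with odor, and at 8.92 in KO, 5.96 in Het and 7.24 in WT with water. It rested on 21 to 25 reads in the water libraries, and its folds of 3.45 in KO (2.16 to 5.72), 3.16 in Het (1.94 to 5.37) and 5.09 in WT (3.29 to 8.18) had overlapping intervals. Irs2 stood at 572 in KO, 475 in Het and 522 in WT with odor, and at 226 in KO, 193 in Het and 236 in WT with water. Its folds of 2.53 in KO (2.32 to 2.76), 2.46 in Het (2.27 to 2.66) and 2.21 in WT (2.05 to 2.39) were the most alike of the members, with an SD of 0.10 on the log2 scale. Across genotypes the effects were 1.86 ± 0.29 for Nfkbid and 1.26 ± 0.14 for Irs2 (limma adjusted p = 0.819 and 0.279).

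Ier2 (ENSMUSG00000053560), a nuclear immediate early protein, had the widest spread between genotypes, with an SD of 0.87. It stood at 99.6 in KO, 144 in Het and 179 in WT with odor, and at 71.9 in KO, 81.4 in Het and 40.6 in WT with water. WT was thus the highest odor library and the lowest water library. The fold was 1.38 in KO (1.05 to 1.84), 1.77 in Het (1.44 to 2.19) and 4.41 in WT (3.36 to 5.87), and across genotypes 1.14 ± 0.34 on the log2 scale (limma adjusted p = 0.882). Without the WT pair it was 0.64.

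Arc (ENSMUSG00000022602), which regulates glutamate receptor traffic at synapses, was set apart by its level in Het. It stood at 41.8 in KO, 165 in Het and 77.6 in WT with odor, and at 24.0 in KO, 68.9 in Het and 21.8 in WT with water. The Het water library was above the KO odor library, so the groups overlapped. Its fold was 1.74 in KO (1.39 to 2.20), 2.40 in Het (2.15 to 2.67) and 3.55 in WT (2.93 to 4.32). Across genotypes the effect was 1.28 ± 0.25 (limma adjusted p = 0.882).

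**Figure D2:**
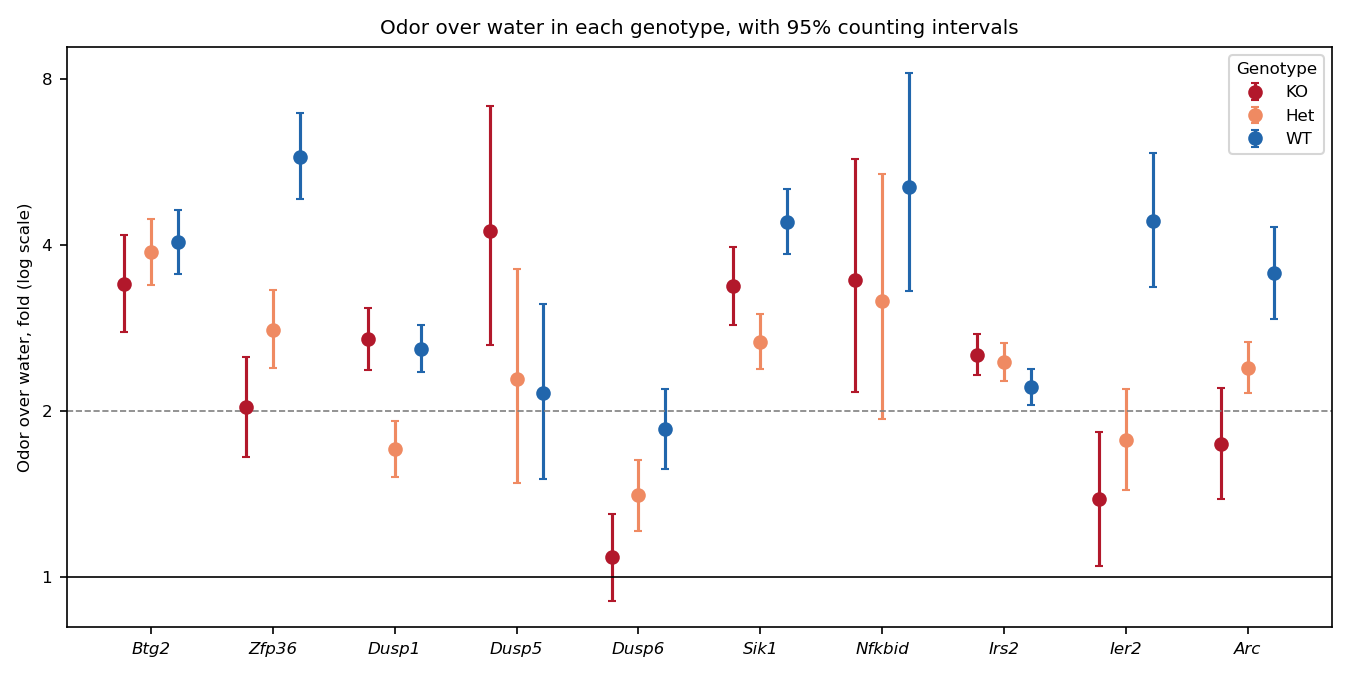
Fold of odor over water (log scale) for each gene in KO, Het and WT, from left to right; points are 1 library over 1 library, bars are 95% counting intervals, the solid line marks no difference and the dashed line 2-fold. The 3 points lie close together for Irs2 (2.53, 2.46 and 2.21) and Btg2, and far apart for Zfp36 and Ier2 (1.38, 1.77 and 4.41), and 1 interval, that of Dusp6 in KO, includes 1.

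The odor experiment with mutants asks whether this induction depends on Dnmt3a. Across the members the odor effect was lowest in KO for 5 (Btg2, Zfp36, Dusp6, Ier2 and Arc), where 35.5% of all genes were lowest in KO, lowest in Het for 3 (Dusp1, Sik1, Nfkbid) and lowest in WT for 2 (Dusp5, Irs2). It was highest in WT for 7, where 30% of all genes were. Against the common effect of Het and WT, KO was lower for 7 members and higher for 3. The members' median was -0.21, where that of all genes was -0.004. Their range was from -1.01 ± 0.59 in Ier2 and -0.98 ± 0.50 in Zfp36 to 0.91 ± 0.53 in Dusp5. The size depended on the genotype KO was set against: the median was -0.46 against WT only and -0.08 against Het only, Ier2 was at -1.66 against WT and -0.36 against Het, and Zfp36 at -1.50 against WT and -0.47 against Het. No member passed (limma adjusted p = 0.77 to 0.995), and none had an unadjusted p under 0.05, where 7.12% of all genes did. Limma called 0% of genes in this comparison, which has 1 residual degree of freedom and takes Het and WT to respond alike.

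The median odor effect of several other gene lists was lowest in KO and highest in WT, the order seen for Btg2, Zfp36, Dusp6, Ier2 and Arc. The median of all 10 members did not have this order, at 1.38 in KO, 1.27 in Het and 1.91 in WT. Of 9 heat shock chaperones, 3 were higher with odor in KO, 8 in Het and 9 in WT, and their summed level was 3056 in KO, 13216 in Het and 19970.5 in WT with odor, and 3743 in KO, 4322 in Het and 3679 in WT with water. Hspa1a, an inducible chaperone, made up much of that sum in Het and WT with odor, at 255 in KO, 4808 in Het and 8255 in WT with odor, and 123 in KO, 327 in Het and 69.5 in WT with water. Its near-identical copy Hspa1b stood at 139.8 in KO, 2853 in Het and 4931 in WT with odor, and the log2 effect across genotypes was 3.94 ± 1.01 for Hspa1a and -0.01 ± 0.22 for Hsp90aa1, the lowest of the 9.

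Among cell type markers, those of sustentacular cells had a median log2 of 0.01 in KO, 0.49 in Het and 0.75 in WT, with 4, 6 and 7 of 8 higher, and a summed level of 40142 in KO, 49059 in Het and 51905 in WT with odor, and 41875 in KO, 41829 in Het and 32640.3 in WT with water. Markers of Bowman gland cells had a median of 0.20 in KO, 0.72 in Het and 1.30 in WT, with 3, 4 and 4 of 4 higher, and a summed level of 1709.7 in KO, 1874 in Het and 3335 in WT with odor, and 1519.7 in KO, 1169 in Het and 799 in WT with water. Markers of horizontal basal cells, 5 genes led in odor effect by Krt14, had a median log2 of -0.93 in KO, 0.78 in Het and 1.17 in WT, with 0, 3 and 5 of the 5 higher, but their summed level was highest in Het, at 96.9 in KO, 283 in Het and 217 in WT with odor, and 179 in KO, 150.3 in Het and 135 in WT with water. Macrophage markers were higher with odor for 1 of 8 in KO, 6 in Het and 7 in WT, and their sum was also highest in Het, at 367 in KO, 793 in Het and 416 in WT with odor, and 492 in KO, 609.9 in Het and 314 in WT with water. Mature neuron markers went another way, with 11 of 12 higher in KO, 1 in Het and 2 in WT, and a summed level of 28043 in KO, 6288 in Het and 18816 in WT with odor, and 21276 in KO, 10805 in Het and 25116 in WT with water. Markers of ensheathing glia had the reverse order, with a median log2 of 0.06 in KO, -0.11 in Het and -1.60 in WT, and 3, 2 and 0 of 6 higher. The medians of microvillous, progenitor, immature neuron, erythroid, and endothelial and stromal markers did not rise from KO over Het to WT. In bulk tissue, fewer cells of a type and less RNA per cell cannot be told apart. The part of these shifts in the members' values was not tested.

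The comparison of the mutants with WT asks whether Dnmt3a loss moves these genes under either treatment. With odor, 8 of the 10 were lower in KO than in WT (49.9% of all genes were), with a median log2 of -0.44; with water 5 were lower (50.9% of all genes) and the median was 0.04. Btg2 was lower in KO under both treatments, at 0.504 of WT with odor (0.452 to 0.561) and 0.60 with water (0.482 to 0.743). Its log2 difference was -0.86 ± 0.18 (limma adjusted p = 1), and it was the member with an unadjusted p under 0.05 in that comparison, where 0.966% of all genes were lower at that level. Dusp1 was also lower in KO under both, at 0.735 and 0.707 of WT with odor and with water (-0.47 ± 0.23, limma adjusted p = 1). Zfp36 was at 0.435 of WT in KO with odor, the member that was more than 2-fold apart there (10.7% of all genes were), and at 1.24 of WT with water (0.972 to 1.57). With water none was 2-fold apart (9.61% of all genes were). Limma called 0% of genes in KO over WT, and the other members had log2 differences from -0.45 to 0.04.

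Het libraries share their WT counterparts with this comparison, so the 2 are given side by side and not as separate evidence. Arc was higher in Het than in WT under both treatments, 2.13-fold with odor (1.92 to 2.37) and 3.16-fold with water (2.60 to 3.84), a log2 difference of 1.36 ± 0.30 (limma adjusted p = 0.706). The same gene in KO was at 0.539 of WT with odor and 1.10 with water. Dusp1 was lower in Het, at 0.47 of WT with odor (0.433 to 0.511) and 0.714 with water (0.629 to 0.81), a log2 difference of -0.78 ± 0.23 (limma adjusted p = 0.706). Arc, higher, and Dusp1, lower, were the 2 members with an unadjusted p under 0.05, where 2.71% of all genes were higher and 3.99% lower, and limma called 0% of genes in Het over WT. With odor 9 of the 10 members were lower in Het than in WT (47.9% of all genes were), Arc being the exception. With water 5 were lower (50.6% of all genes). On the log2(value + 0.5) scale Dusp1 and Arc were at least 2-fold apart with odor (14.8% of all genes were) and Arc with water (8.17%).

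**Figure D3:**
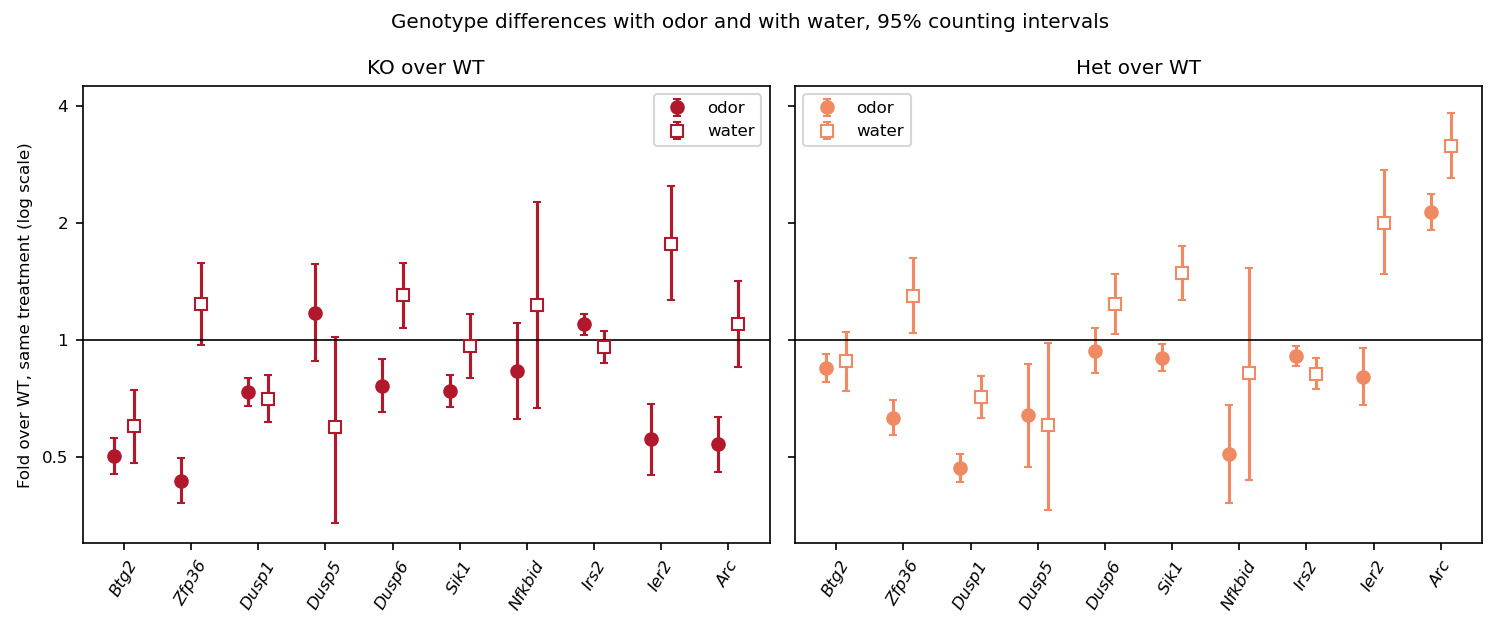
Fold over WT of the same treatment (log scale) for KO (left panel) and Het (right panel), with filled circles for odor left of open squares for water; points are 1 library over 1 library and bars are 95% counting intervals. In KO most odor points lie below 1 (8 of 10) while the water points fall on both sides; in Het, Arc lies above 2 under both treatments (2.13 and 3.16).

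The closest relatives of these genes, and the cascade above them, were listed to see whether induction extends to whole families. Of 32 relatives tested, 29 were higher with odor across genotypes and 3 lower, with a median log2 of 0.31; the median of all genes was 0.00. None was called by limma (smallest adjusted p = 0.882), and none was 2-fold higher in every genotype. Among the other MAP kinase phosphatases 4 of 5 were higher, from Dusp10 (0.73 ± 0.26) to Dusp7 (-0.10 ± 0.33). Among the Sprouty and Spred inhibitors of ERK signalling 5 of 6 were higher, from Spry1 (0.85 ± 0.24) to Spred1 (-0.10 ± 0.16). Spry4 was 13.9 in KO, 26.3 in Het and 36.1 in WT with odor, and 15.0 in KO, 16.2 in Het and 10.2 in WT with water, graded like Zfp36.

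The other families varied, with medians from 0.05 for the BTG and TOB proteins to 0.65 for the Zfp36 decay factors. Of the other BTG and TOB proteins 4 of 5 were higher, from Tob2 (0.85 ± 0.20) to Btg4 (-0.24 ± 0.76), and the decay factors Zfp36l1 (0.78 ± 0.17) and Zfp36l2 (0.53 ± 0.15) were both higher. The other SIK kinases and CRTC coactivators were higher by little, 5 of 5, from Sik3 (0.33 ± 0.18) to Sik2 (0.03 ± 0.24). The other I-kappa-B proteins were higher in 5 of 5, from Nfkbiz (0.56 ± 0.26) to Nfkbib (0.19 ± 0.16), and the other IER and IRS genes in 4 of 4, from Ier3 (1.21 ± 0.43) to Irs1 (0.10 ± 0.17). Ier3 was thus above the members Dusp1, Ier2 and Dusp6 in size of effect, but above Dusp1 and Ier2 by less than its SE. It had 6 to 52 reads a library, and its log2 effect was 0.25 in KO, 1.11 in Het and 2.26 in WT. All of these relatives had a limma adjusted p of at least 0.882. The cascade itself showed no common direction: 5 of 12 ERK cascade genes were higher and 7 lower (median -0.05), from the ERK-activated kinase Rps6ka1 (0.58 ± 0.26) to Araf (-0.23 ± 0.17). Of the CREB and SRF factors 5 of 11 were higher and 6 lower (median -0.01), from the SRF coactivator Mkl1 (0.45 ± 0.23) to Creb1 (-0.34 ± 0.21).

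**Figure D4:**
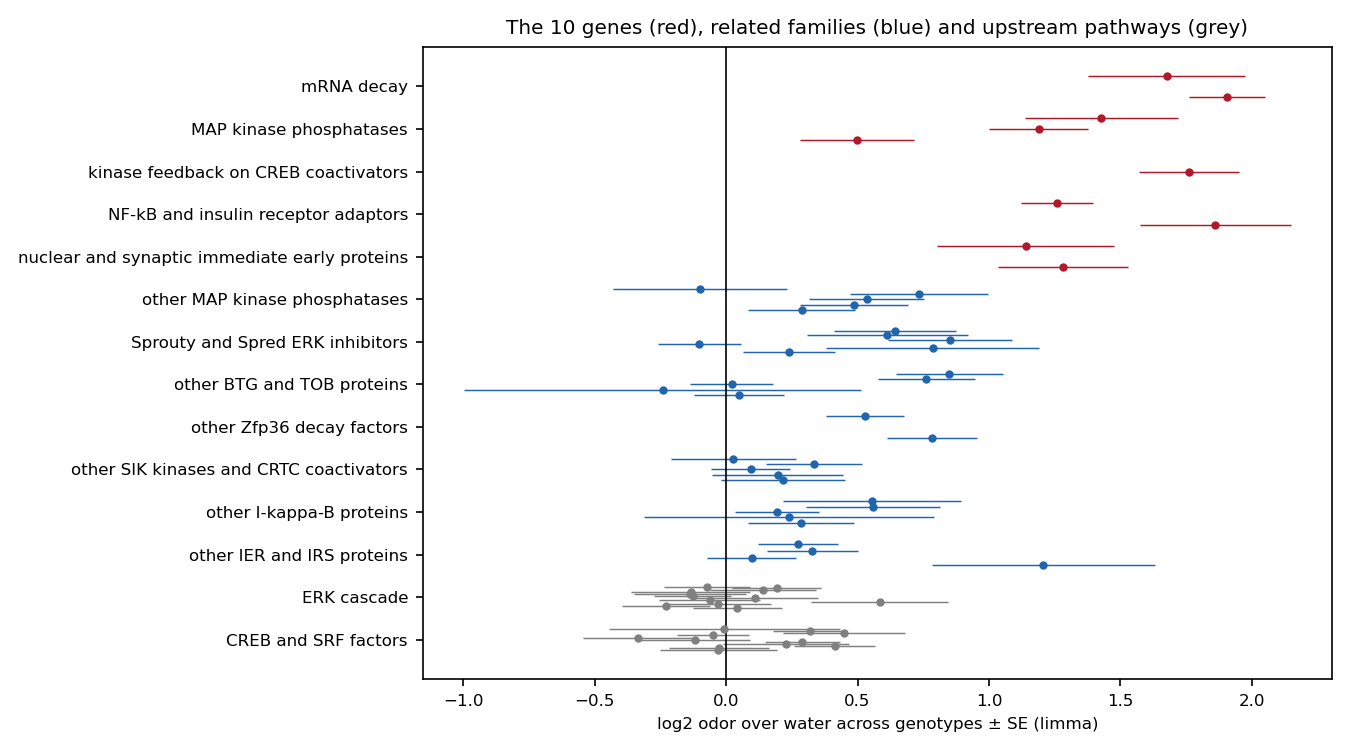
Log2 odor over water across genotypes with its SE (limma) for each gene, by list, with the 10 members in red on top, related families in blue and the upstream cascade and factors in grey. The members lie between 0.50 and 1.90, most relatives between 0 and 0.85 with Ier3 at 1.21, and the upstream genes on both sides of 0.

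The genes whose profile over the 6 MOE libraries was most like the mean profile of the members were Nr4a1 (Pearson r = 0.997), Fos (0.994), Letm1 (0.991), Egr1 (0.986) and Zfp7 (0.985), odorant receptors left out. The 6 points share library depth and scaling, and the r is a description. Likeness of shape does not mean likeness of size: the log2 odor effect was 3.43 ± 0.35 for Nr4a1, 3.99 ± 0.25 for Fos and 3.63 ± 0.18 for Egr1, but 0.26 ± 0.16 for Letm1 and 0.29 ± 0.14 for Zfp7. Fos and Egr1 rose (limma adjusted p = 0.0454 and 0.0249), while Nr4a1, Letm1 and Zfp7 did not pass (0.276, 0.882 and 0.882). Among the members, Sik1 was most like the mean of the other members (r = 0.985) and Arc least (0.625).

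Sorted neurons give the level of these genes in the cells that detect odor. Mature neuron markers summed to 66389 in KO, 90715 in Het and 96038 in WT mOSN, against 6288 to 28043 in MOE, and sustentacular markers to 729, 657 and 539, against 32640.3 to 51905 in MOE. The tables were normalized separately, so each level of a member is given with its percentile in its own table. Summed levels have no percentile. A ratio of an mOSN to an MOE value is a description across tables with no test. Dusp5 was the member that differed most. It stood at 256 in KO, 241 in Het and 300 in WT mOSN, the 91.6, 88.3 and 90.4 percentile, and in MOE with water at the 19.1, 18.0 and 27.8 percentile. The mOSN value was 23.7 times the MOE water value in KO, 22.1 in Het and 16.6 in WT. The mOSN libraries also differed by genotype in kit and RNA input, as given below. The summed mature neuron markers gave 3.12, 8.40 and 3.82 times in KO, Het and WT.

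Btg2, Dusp1, Sik1, Nfkbid, Irs2 and Ier2 also ranked higher in mOSN than in MOE with water in each genotype. Ier2 stood at 193 in KO, 295 in Het and 302 in WT mOSN, at the 88.1 to 90.8 percentile, against the 48.1 to 68.4 percentile in MOE with water. Btg2 stood at 324 in KO, 234 in Het and 182 in WT mOSN, the 93.6, 87.8 and 83.1 percentile, against the 59.0, 69.7 and 72.3 percentile in MOE with water. Dusp1 stood at 178 in KO, 249 in Het and 231 in WT mOSN, the 87.0, 88.7 and 87.0 percentile, against the 66.6, 67.2 and 74.9 percentile in MOE with water. These 3 were above the middle of both tables but for Ier2 in WT MOE with water. The levels of the transcription factors Fos, Fosb, Egr1, Egr2, Nr4a1, Nr4a3 and Junb were summed as well. Their sum was 1513 in KO, 1796 in Het and 1816 in WT mOSN. In MOE with water it was 165 in KO, 320.3 in Het and 184 in WT. Fos, Fosb, Egr1, Nr4a1 and Junb made up most of the mOSN sum. Nr4a3 was at 16.1 in KO, 16.9 in Het and 13.4 in WT mOSN. Egr2 was below Nr4a3 in each genotype, at 6.78 in KO mOSN and 1.37 in WT mOSN. The labels give no odor treatment for these cells, and the part of handling before the sort in these levels was not tested.

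Zfp36 and Dusp6 went the other way, ranking lower in sorted neurons than in MOE. Zfp36 stood at 40.8 in KO, 36.3 in Het and 31.4 in WT mOSN, 0.426, 0.36 and 0.405 times its MOE water value, and at the 56.3, 50.6 and 46.9 percentile, against the 72.0, 73.7 and 66.6 percentile in MOE with water. Dusp6 stood at 11.5 in KO, 21.03 in Het and 11.3 in WT mOSN, 0.229, 0.443 and 0.295 times, and at the 23.5, 39.6 and 30.9 percentile, against the 54.6, 53.4 and 46.3 percentile in MOE with water. Arc had no common direction. It stood at 25.5 in KO, 24.0 in Het and 13.4 in WT mOSN, 1.06, 0.348 and 0.613 times its MOE water value, and at the 43.7, 42.0 and 33.2 percentile, against the 35.0, 63.8 and 32.0 percentile in MOE with water. Irs2 stood at 271 in KO, 274 in Het and 289 in WT mOSN, 1.20, 1.42 and 1.23 times its MOE water value, and at the 92.2, 90.0 and 90.0 percentile, against the 88.3, 86.2 and 88.8 percentile in MOE with water. It was thus near the top of both tables. Sik1 stood at 87.5 in KO, 85.1 in Het and 67.7 in WT mOSN, the 74.5, 70.1 and 63.5 percentile, against the 56.5, 68.6 and 57.5 percentile in MOE with water. Nfkbid stood at 27.7 in KO, 16.7 in Het and 20.5 in WT mOSN, the 45.9, 35.4 and 39.2 percentile, against the 16.4, 9.92 and 12.8 percentile in MOE with water.

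**Figure D5:**
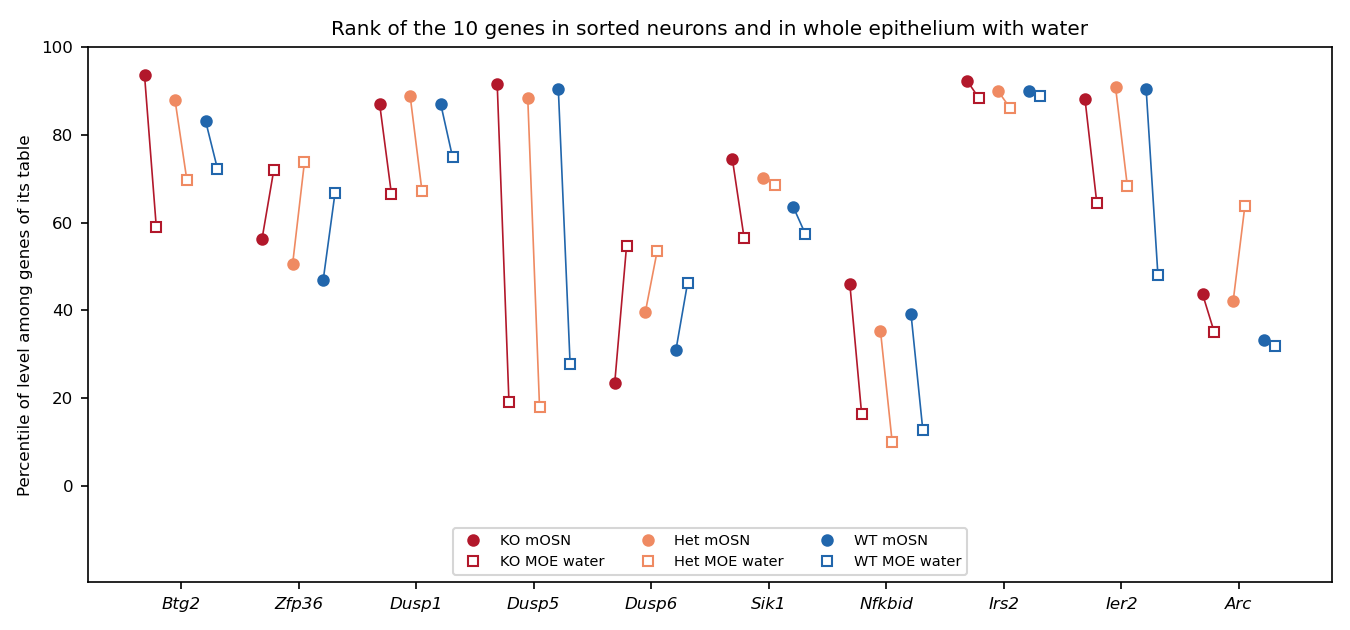
Percentile of each gene's level among the genes of its own table, with filled circles for mOSN (the authors' pooled value) left of open squares for MOE with water, in KO, Het and WT from left to right. Dusp5 spans the widest gap (90.4 against 27.8 in WT), and Zfp36 and Dusp6 are the genes whose mOSN point is below the MOE point in every genotype.

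Between genotypes, no member was 2-fold apart in mOSN in KO over WT (20.3% of all genes were) or in Het over WT (9.39%). In each mutant 6 of the 10 were higher than in WT, where 42.8% of all genes were higher in KO and 47.6% in Het. Both WT libraries were made with ScriptSeq, both KO libraries with NuGEN and the Het libraries with 1 of each. RNA input was 200 ng for both WT, 200 and 100 ng for the Het and 100 ng for both KO mOSN libraries. Each MOE library had 100 ng. Genotype, library kit and RNA input thus cannot be told apart between KO and WT mOSN. The median of all genes was -0.13 on the log2 scale in KO over WT and -0.02 in Het over WT. In KO the member nearest to 2-fold was Arc, at 1.90 times WT, followed by Btg2, at 1.78 times. In Het it was Dusp6, at 1.85 times WT, followed by Arc, at 1.79 times. With median-ratio scaling Arc in KO passed 2-fold, at 1.04 on the log2 scale. The lowest in KO were Ier2 at 0.637 and Dusp1 at 0.767 of WT. Btg2 thus stood above WT in KO mOSN and below WT in KO MOE under both treatments, 2 tables that share no library.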

How the data were processed

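RNA was depleted of ribosomal RNA and sequenced, per the labels. The deposited values are RPKM, by the authors' naming. STAR 2.3.0, Bowtie2 2.1, featureCounts, DESeq and Picard 1.64 are listed, with mm9 and NCBIM37 as builds, per the submitters' processing notes; their roles, the normalization formula, the use of strand in counting and how the 2 mOSN libraries of a genotype were pooled are not given in the sources used here. The gene lengths used are not given either, and those implied for some genes may be too long. Tests compare a gene with itself within a table; percentiles, sums over marker genes and ratios of mOSN to MOE values carry these lengths and the separate scaling of the tables, and are descriptions.

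MOE values are spaced in steps that fit a whole read number, and such reads were recovered for 99.99% of 14613 genes (relative tolerance 1e-05), exact up to a divisor shared by a gene's 6 numbers. Totals were 9166049 to 16722993 per library. In the mOSN table, 7 of 14751 rows hold no values and were not used. Genes at 0.5 or more in at least 2 libraries were kept, taken as log2(value + 0.5) and fitted with limma 3.58.1 in R 4.3.3 (eBayes with trend; two-sided p, adjusted by Benjamini-Hochberg and called under 0.05). Odor over water had genotype as a block, genotypes had treatment as a block (2 residual degrees of freedom each), and the odor effect in KO had 1. The odor fit was run on simulated data in which the odor effect was the same in every genotype, and its median estimates were checked. That check does not cover calls where the effect differs between genotypes. The mOSN pooled values allow no test. Intervals on folds are exact binomial, for counting error only.

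The members and gene lists were chosen with earlier results of these data known. Every member is named; of the family and pathway lists, genes with the largest and smallest effect are named, with any gene past the test or 2-fold in all genotypes. Marker and heat shock lists are given by counts, medians and sums. Spry4 and the heat shock genes were named after their values were seen. The 5 genes most like the members had the highest Pearson correlation with the members' mean centred log2 profile, among genes with a mean of at least 1. Alternatives were other pseudocounts, filters, scalings, voom on recovered reads, no trend, no block and leaving out a genotype. The other 21 samples (DNA modification, chromatin, DNase and input) were not analysed here.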

Additional observations from a re-analysis of the deposited data

Results flagged for a closer look

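With 1 library per group no test for outlying samples applied. For the results below the mutant lay above WT with water and below WT with odor, each beyond the 95% counting interval. Ier2 was at 0.556 of WT in KO with odor and 1.77 with water, and at 0.805 in Het with odor and 2.004 with water. Dusp6 was at 0.763 of WT in KO with odor and 1.30 with water. Zfp36 was at 0.632 of WT in Het with odor and 1.30 with water, and Sik1 at 0.90 of WT in Het with odor and 1.49 with water. The KO and Het values share the WT libraries, and each value compares 1 library with 1. The difference between the KO odor effect and that of Het and WT gave limma adjusted p = 0.781 for Ier2 and 0.836 for Dusp6; for Het alone it was not tested.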

How the results depend on the processing

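The number of genes called for odor over water, 2 in the main setting, was 1 with median-ratio scaling, 0 without the mean-variance trend, 6 with voom on recovered reads, 1 without genotype as a block, and 0 to 4 when 1 genotype's pair was left out. Of the members 0 were called in every comparison and alternative except voom for odor, which called 1, Btg2 (log2 1.91). The effect of every member stayed above 0 for odor over water in all alternatives, but without the WT pair Ier2 was at 0.64 (1.14 in the main setting) and Dusp6 at 0.30 (0.50). Btg2 had an adjusted p of 0.199 without the KO pair, 0.499 without the WT pair and 0.803 without the Het pair, each with 1 residual degree of freedom. The count of members at least 2-fold higher in every genotype, 6, stayed within 1.5 times under the other pseudocounts and the other scaling and was 6 to 7 without 1 pair, an alternative chosen after seeing the data. The members' median of KO over WT was -0.24, but 0.043 with water libraries only, and of Het over WT -0.18, but 0.0604 with water only. Values that turned sign in KO over WT were Dusp6 with median-ratio scaling (0.0044) and quantile normalization (0.01), Ier2 with quantile normalization (0.0105) and Nfkbid with voom (-0.11). With odor libraries only, Dusp5 was at 0.23 and Nfkbid at -0.26, and with water only Dusp6 was at 0.38, Arc at 0.13, Irs2 at -0.0585, Zfp36 at 0.31 and Ier2 at 0.82. In Het over WT the turned values were Dusp6 at -0.0925, Sik1 at -0.15 and Ier2 at -0.31 with odor only, and Zfp36 at 0.38 with water only. For the odor effect in KO, Sik1 was at 0.0082 with quantile normalization, 0.0093 with voom and 0.33 against Het only, and Nfkbid at 0.15 against Het only; the members' median, -0.21, was -0.46 against WT only and -0.08 against Het only. In KO over WT mOSN, median-ratio scaling gave 1 member at least 2-fold apart, Arc, and turned Irs2 to 0.0425. The cause of these changes was not tested. MOE libraries were paired by genotype, not by replicate number, and without that block Btg2 had an adjusted p of 0.608. By replicate number, which among the RNA libraries only mOSN labels carry, no paired analysis was possible because the mOSN columns are pooled. Dusp5 and Nfkbid, with 21 to 29 reads in the lowest libraries, had the widest counting intervals.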
